A study of Mus musculus with 12 samples.

Results

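The 9 genes described here mark hepatoblasts, the bipotent epithelial progenitors of the fetal liver, and were followed in livers of mouse embryos at E12.5, homozygous for the G2A allele of Rpt2 or WT. They were Afp, Alb, Ttr, Trf, Apoa1, Apoa2, Apob, Hnf4a and Foxa2, taken by symbol as a fixed list from the 23235 entries of the liver table. All 9 of 9 were found, and all 9 were among the 12938 liver entries that reached 1 FPKM in at least 3 libraries and were tested. FPKM (fragments per kilobase of transcript, scaled to the mapped fragments of the library) is a level corrected for gene length and library depth.

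The groups were 3 livers labelled Rpt2G2A/G2A (here G2A) and 3 livers labelled WT, from littermates at E12.5, with no treatment named. The labels speak of 3 littermate pairs but do not tie the sample numbers to pairs. The main test was therefore unpaired, and a replicate block was run as an alternative. Immortalized mouse embryonic fibroblasts (MEFs) of the same genotypes, labelled as 3 samples each, were the other material. Rpt2 is a proteasome ATPase encoded by Psmc1, and, as background, G2A exchanges the glycine to which its N-myristoyl lipid is attached. The allele is carried by every cell of the embryo, no sorting of liver cells is named, and fetal liver at this stage also holds the red cells that it produces. In such bulk RNA, fewer cells of a type and less RNA per cell cannot be told apart. The labels do not say whether the MEF samples were separate cultures, so p-values measure only the spread between these samples.

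As background, hepatoblasts secrete the plasma proteins of the fetus under a network of liver-enriched transcription factors that includes the HNF1, HNF4, FOXA and C/EBP families. Albumin and alpha-fetoprotein arose from a common ancestral gene, carry small molecules in plasma and change places during development, alpha-fetoprotein being the fetal form that is shut off after birth. Apolipoproteins A-I and A-II are the main proteins of high-density lipoprotein, and apolipoprotein B is the scaffold of the triglyceride-rich particles.

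Alb and Afp lay in tandem on the plus strand of chromosome 5, with 14110 bases between the end of Alb (chr5:90889915-90905629) and the start of Afp (chr5:90919740-90937933). These and all following positions are in NCBIM37, the assembly also called mm9. Apoa1 (chr9:46036663-46038549), Apoa2 (chr1:173155185-173156510) and Apob (chr12:7984454-8023641) were on plus strands, as was Hnf4a (chr2:163332544-163398646). Foxa2 (chr2:147868613-147872705) and Trf (chr9:103106331-103132774) were on minus strands. All 9 are annotated as protein coding. Hnf4a overlaps an antisense transcript, Ttr does too, and Trf has a 2nd annotated entry that runs into Srprb. The sources used here do not say whether counting used strand, so reads of the antisense transcripts could not be separated. Srprb lies on the same strand as Trf, and Hnf4a also overlaps a U6 snRNA on its own strand. Strand would not separate the reads of these.

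The promoters of the 4 genes whose ratios are compared in the livers are shown because Afp and Alb, and Apoa1 and Apoa2, are the closest relatives in role among the 9. Each is the plus strand from 250 bases before to 50 after the RefSeq start. The sequences are RefSeq's (GRCm38.p6), located in NCBIM37 by exact match at chr5:90919490-90919789 (Afp), chr5:90889646-90889945 (Alb), chr9:46036463-46036762 (Apoa1) and chr1:173154935-173155234 (Apoa2). Capitals mark matches, on either strand, to the HNF1 motif GTTAAT (part of the full site), the FOXA motif TGTTTNC or the C/EBP motif TTGCNNAA.
Afp: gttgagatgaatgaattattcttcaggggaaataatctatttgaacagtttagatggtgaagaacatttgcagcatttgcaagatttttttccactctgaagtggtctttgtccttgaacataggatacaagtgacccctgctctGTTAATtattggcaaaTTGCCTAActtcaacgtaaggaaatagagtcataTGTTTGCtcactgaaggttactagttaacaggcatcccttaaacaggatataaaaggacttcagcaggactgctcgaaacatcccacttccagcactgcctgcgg
Alb: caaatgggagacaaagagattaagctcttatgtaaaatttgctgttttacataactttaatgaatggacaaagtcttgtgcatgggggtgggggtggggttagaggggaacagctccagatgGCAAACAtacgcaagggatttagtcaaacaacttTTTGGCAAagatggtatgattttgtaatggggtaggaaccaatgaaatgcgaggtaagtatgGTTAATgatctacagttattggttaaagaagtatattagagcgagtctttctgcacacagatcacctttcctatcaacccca
Apoa1: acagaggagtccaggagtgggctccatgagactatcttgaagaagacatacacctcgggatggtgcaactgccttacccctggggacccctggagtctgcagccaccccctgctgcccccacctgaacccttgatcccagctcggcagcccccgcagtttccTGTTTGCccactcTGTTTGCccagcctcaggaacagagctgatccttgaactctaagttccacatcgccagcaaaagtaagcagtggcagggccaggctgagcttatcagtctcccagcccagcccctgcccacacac
Apoa2: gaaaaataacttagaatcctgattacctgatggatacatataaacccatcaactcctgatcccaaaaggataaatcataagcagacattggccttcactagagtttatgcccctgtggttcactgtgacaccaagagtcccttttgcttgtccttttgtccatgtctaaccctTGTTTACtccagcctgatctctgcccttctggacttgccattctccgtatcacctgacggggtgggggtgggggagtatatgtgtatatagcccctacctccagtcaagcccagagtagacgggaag

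Counted from the start site to the first base of the match, the Afp promoter held the HNF1 motif at -105, the C/EBP motif at -89 and the FOXA motif at -55. The Alb promoter held the same 3 motifs in another order, FOXA at -128, C/EBP at -94 and the HNF1 motif at -32. Apoa1 had 2 FOXA matches, at -88 and -75, and the Apoa2 window shown had 1, at -77, and neither of these windows held the HNF1 or C/EBP letters. The window of another Apoa2 start site in the table, not shown, held C/EBP matches at -164 and -140. Promoters of 7 of the 9 genes were in the table. The FOXA letters were in at least 1 promoter of 6 of the 7 genes, against 20.5% of all 32851 promoters. The HNF1 motif was found for 4 of 7 genes against 7.1% of all promoters, and the C/EBP letters for 4 of 7 against 10.8%. The HNF4 letters CAAAGTCC were found for 0 of 7, against 1.42%. A gene with several start sites has several windows, so these shares are descriptions and no site is claimed from a match.

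The deposited FPKM summed to between 792987 and 840762 over all entries in the 6 livers. Among genes at low FPKM, the most frequent ratio of a library to WT liver 1 was between 0.967 and 1.008, held by 361 to 403 of the 1904 to 2065 genes compared, and the depth in reads is unknown. The MEF libraries held 36415586 to 37695116 reads. Psmc1, which carries the allele, was at 151.5, 144.7 and 160.8 FPKM in G2A livers 1, 2 and 3, against 178.5, 181.4 and 177.9 FPKM in WT livers 1, 2 and 3. Its level was lower in all 3 G2A livers but did not pass the threshold (log2 fold change -0.23, SE 0.06, limma adjusted p = 0.114). Without G2A liver 3 it passed (log2 fold change -0.27, limma adjusted p = 0.0173), as did 24.4% of all tested genes. The level does not show the base change, so it does not check the genotype labels. On the first principal component of all tested genes (37.9% of the variance) G2A livers 1 and 2 lay at 30.6 and 34.9, and G2A liver 3 at -7.91, with the WT livers between -23.3 and -13.3. G2A liver 3 therefore stood apart from the other G2A livers, and results that rest on it are given with and without it.

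Of the 9 genes, 0 passed the threshold between G2A and WT liver (limma on log2(FPKM + 1), Benjamini-Hochberg adjusted p under 0.05), where 3 of all 12938 genes, or 0.0232%, did (0.0155% higher and 0.00773% lower). At an unadjusted limma p under 0.05 the count was again 0 of 9, against 21.4% of all 12938 genes tested (1173 higher and 1598 lower). These are also the background for the unadjusted liver counts of the gene lists below. The smallest adjusted p among the 9 was 0.26, for Trf. The median log2 fold change of the 9 was -0.12, against 0.01 over all genes, with 4 genes above and 5 below 0.

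Afp, alpha-fetoprotein, was at 5144, 5114 and 6966 FPKM in G2A livers 1, 2 and 3, against 4523, 5173 and 5772 FPKM in WT livers 1, 2 and 3. The highest liver was G2A liver 3, the other G2A livers lay among the WT livers, and the groups overlapped. The mean was 5742 ± 1061 FPKM in G2A and 5156 ± 624 in WT livers (SD, n = 3 each). This was a log2 fold change of 0.15 (SE 0.16, 95% interval -0.24 to 0.53, limma adjusted p = 0.612). Afp ranked 8 of all tested genes by mean FPKM.

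Alb, albumin, was at 2752, 2480 and 4150 FPKM in G2A livers 1, 2 and 3, against 3093, 3129 and 3863 FPKM in WT livers 1, 2 and 3. G2A livers 1 and 2 were below every WT liver, G2A liver 3 was above every WT liver, and the groups overlapped. For Alb the log2 fold change was -0.13 (SE 0.21, 95% interval -0.64 to 0.37, limma adjusted p = 0.731).

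Ttr, transthyretin, which carries thyroxine and the retinol-binding protein, was at 159.2, 155.3 and 242.2 FPKM in G2A livers 1, 2 and 3. In WT livers 1, 2 and 3 it was at 214.5, 214.5 and 257.8 FPKM. G2A livers 1 and 2 were low and close together, and G2A liver 3 lay inside the WT range. The log2 fold change was -0.33 (SE 0.18, 95% interval -0.77 to 0.12, limma adjusted p = 0.348).

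Trf, transferrin, which carries iron to the red cell precursors and other cells, was at 1222, 1233 and 1679 FPKM in G2A livers 1, 2 and 3. In WT livers 1, 2 and 3 it was at 892.2, 1169 and 1136 FPKM. All 3 G2A livers were above all 3 WT livers, and Trf was the only gene of the 9 whose groups did not overlap. Over all tested genes 11.8% had every G2A liver above every WT liver and 15.7% every G2A liver below, so 1 of 9 higher and 0 of 9 lower were not above that background. The mean was 1378 ± 261 FPKM in G2A and 1066 ± 151 in WT livers (SD, n = 3 each). The log2 fold change of 0.36 (SE 0.16, 95% interval -0.03 to 0.76) did not pass the threshold (limma adjusted p = 0.26).

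**Figure D1:**
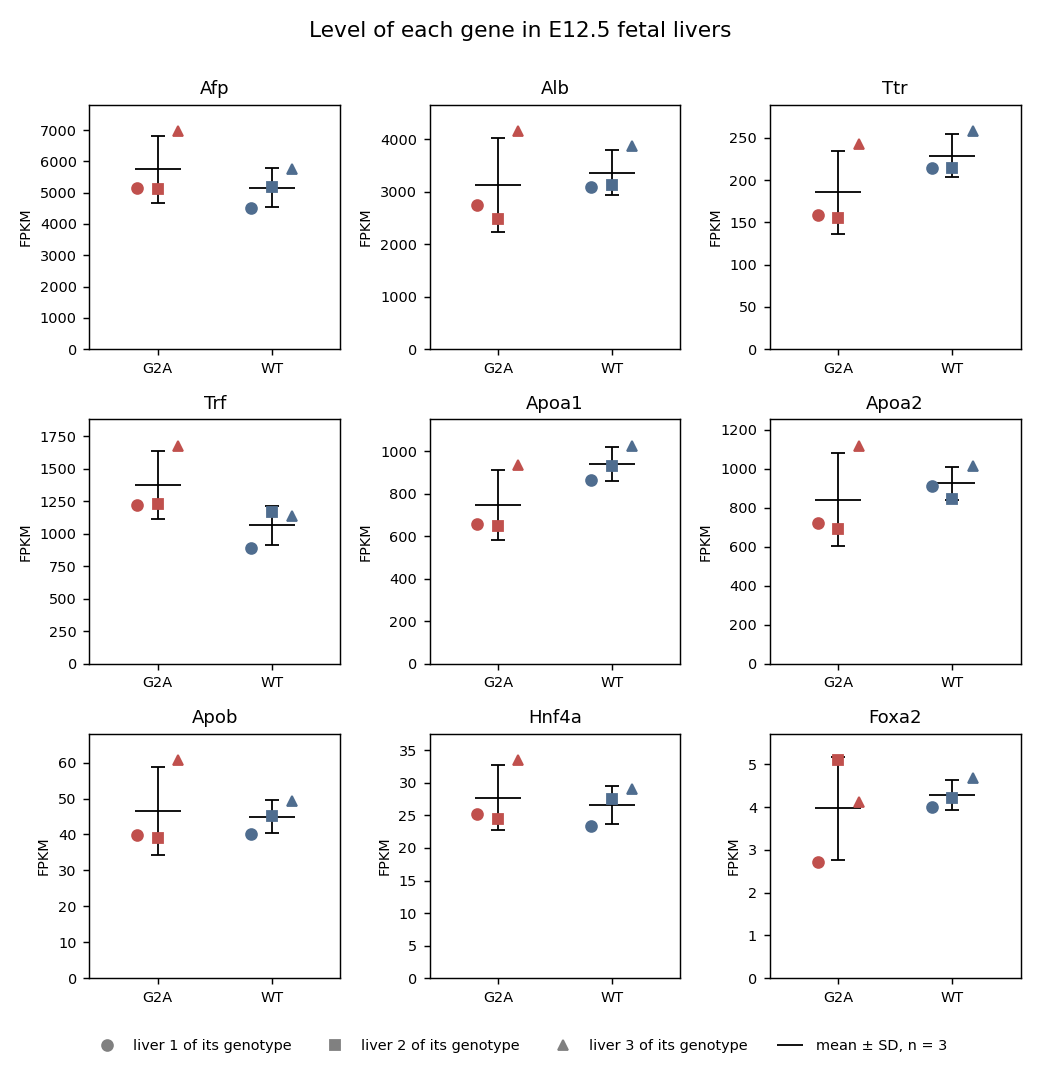
FPKM of each of the 9 genes in the E12.5 livers, G2A left of WT in every panel, with 1 point per liver, its number shown by the marker, and the mean ± SD (n = 3 each). G2A liver 3 is the highest G2A liver in every panel but that of Foxa2, and only Trf has all G2A points above all WT points.

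Apoa1, the main protein of high-density lipoprotein, was at 659, 647.3 and 936.7 FPKM in G2A livers 1, 2 and 3, against 865.1, 929.8 and 1026 FPKM in WT livers 1, 2 and 3. G2A livers 1 and 2 lay well below every WT liver, and G2A liver 3 lay between WT livers 2 and 3. The log2 fold change was -0.35 (SE 0.16, 95% interval -0.73 to 0.03, limma adjusted p = 0.261), the lowest of the 9.

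Apoa2, the second protein of high-density lipoprotein, was at 719.7, 688.7 and 1119 FPKM in G2A livers 1, 2 and 3, against 914.2, 846.5 and 1017 FPKM in WT livers 1, 2 and 3. The G2A livers enclosed the WT range, with G2A livers 1 and 2 below it and G2A liver 3 above it. Its log2 fold change was -0.17 (SE 0.19, 95% interval -0.64 to 0.30, limma adjusted p = 0.635).

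Apob, which is lipidated as it enters the endoplasmic reticulum, was at 39.75, 38.96 and 60.67 FPKM in G2A livers 1, 2 and 3, against 40.25, 45.02 and 49.41 FPKM in WT livers 1, 2 and 3. As for Apoa2, the G2A livers enclosed the WT range. Its log2 fold change was 0.02 (SE 0.18, 95% interval -0.42 to 0.46, limma adjusted p = 0.95).

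Hnf4a, a nuclear receptor that drives many hepatocyte genes, was at 25.24, 24.49 and 33.48 FPKM in G2A livers 1, 2 and 3, against 23.36, 27.44 and 29.01 FPKM in WT livers 1, 2 and 3. Only G2A liver 3 lay outside the WT range. For Hnf4a the log2 fold change was 0.05 (SE 0.14, 95% interval -0.29 to 0.39, limma adjusted p = 0.859).

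Foxa2, a pioneer factor of the foregut endoderm, was the lowest of the 9 in level, at 2.71, 5.098 and 4.117 FPKM in G2A livers 1, 2 and 3, against 3.992, 4.202 and 4.676 FPKM in WT livers 1, 2 and 3. Here G2A liver 1 was the lowest and G2A liver 2 the highest of all 6 livers. The SD was 1.201 FPKM in G2A and 0.351 in WT livers (n = 3 each). The log2 fold change was -0.12 (SE 0.19, 95% interval -0.57 to 0.34, limma adjusted p = 0.741).

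Most of the 9 genes were high or low together within a library. G2A liver 3 was the highest G2A liver for 8 of the 9 genes, Foxa2 being the exception, where 34.7% of all tested genes had G2A liver 3 highest. It was above every WT liver for 6 genes and below every WT liver for 0. G2A liver 1 was below every WT liver for 6 genes and above for 1, and G2A liver 2 below for 5 and above for 2. Averaged over the 9 genes, the deviation from the WT mean on the log2(FPKM + 1) scale was -0.24, -0.20 and 0.28 in G2A livers 1, 2 and 3, against -0.13, -0.01 and 0.14 in WT livers 1, 2 and 3. The WT livers differed among themselves too, with WT liver 3 the highest for 8 genes and WT liver 1 the lowest for 8. Together the 9 genes summed to 10724, 10387 and 15192 FPKM in G2A livers 1, 2 and 3, against 10571, 11538 and 13155 FPKM in WT livers 1, 2 and 3.

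**Figure D2:**
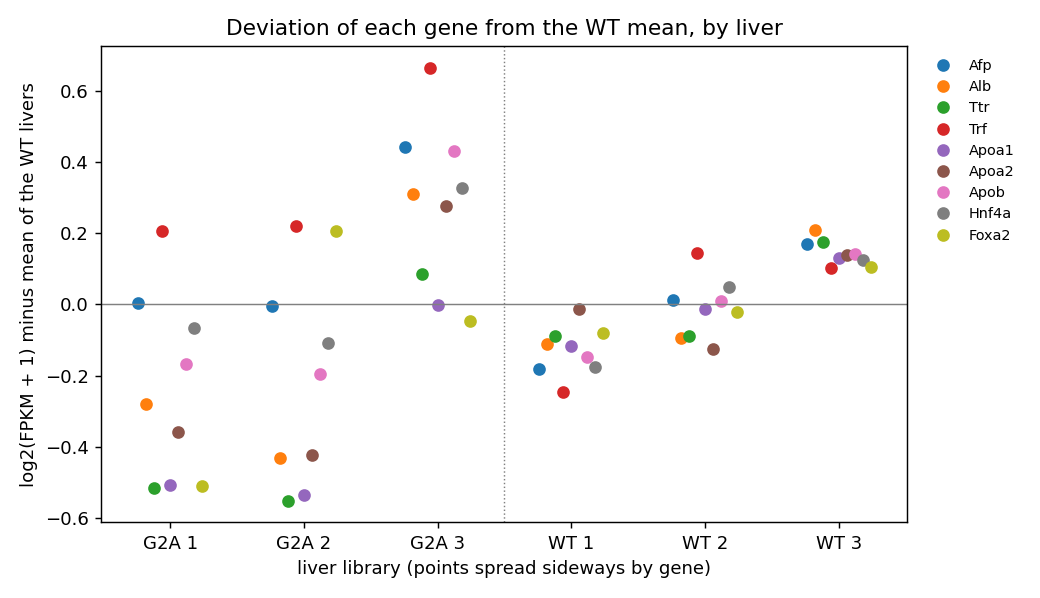
Deviation of each gene from the mean of the WT livers on the log2(FPKM + 1) scale, by liver library, with 1 colour per gene and points spread sideways by gene. In G2A livers 1 and 2 most genes lie below 0 with Trf above it, and in G2A liver 3 most lie above 0.

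Without G2A liver 3, 3 of the 9 genes fell in G2A liver: Apoa1 by 0.52 on the log2 scale (limma adjusted p = 0.0153), Ttr by 0.53 (adjusted p = 0.0175) and Apoa2 by 0.39 (adjusted p = 0.0306). In that fit 24.4% of all tested genes passed, 12.0% lower and 12.4% higher. Alb missed the threshold at -0.36 (limma adjusted p = 0.0865), Trf was at 0.21 (adjusted p = 0.248) and Afp at -0.000418 (adjusted p = 0.999). With libraries weighted by their agreement within a group, where G2A liver 3 had a weight of 0.176 and G2A liver 1 of 6.22, the same 3 genes fell. Their log2 fold changes were -0.53 for Apoa1, -0.54 for Ttr and -0.38 for Apoa2 (limma adjusted p = 0.00474, 0.00649 and 0.0187), and 46.8% of all genes passed, 26.1% higher and 20.7% lower.

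**Figure D3:**
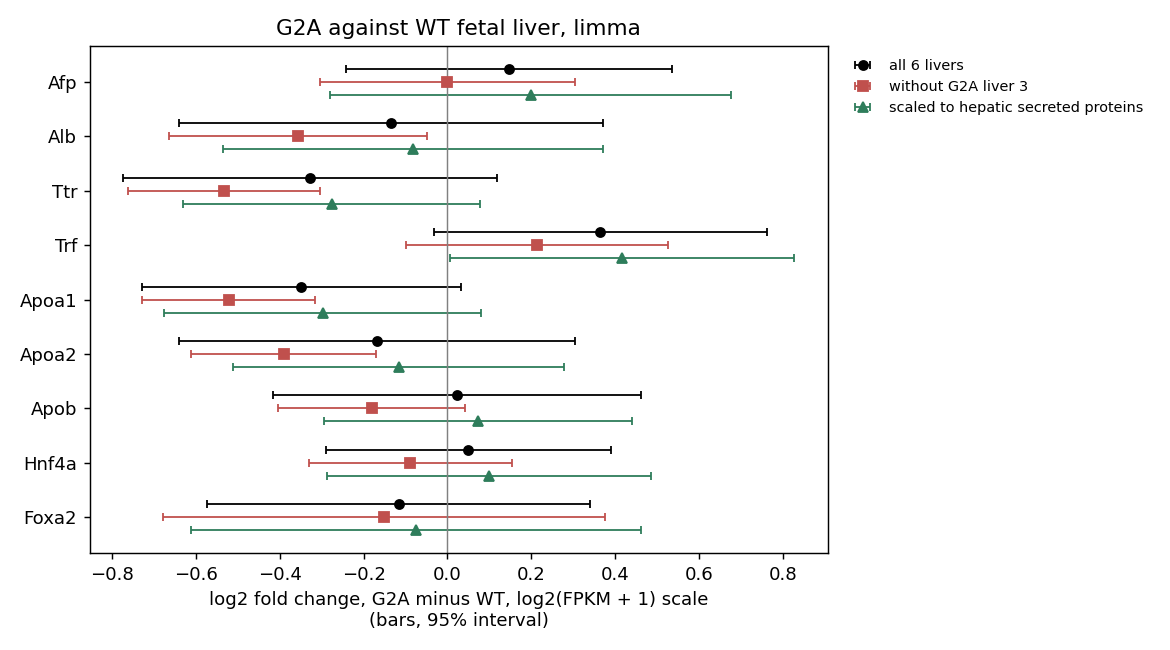
Log2 fold change, G2A minus WT liver, of each gene with its 95% interval, from all 6 livers (black circles), without G2A liver 3 (red squares) and after scaling each library to its hepatic secreted proteins (green triangles). As deposited, with all 6 livers, every interval includes 0, after scaling only that of Trf lies above 0, and without G2A liver 3 the intervals of Ttr, Apoa1, Apoa2 and Alb lie below it.

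Markers of other cells differed between the same libraries, and their part in the levels of the 9 genes was not tested. All 9 tested definitive erythroid markers had log2 fold changes below 0 (median -0.48), with summed levels of 1583 to 3031 FPKM in G2A and 2391 to 3345 FPKM in WT livers. Among them G2A liver 3 had the highest sum of the G2A livers. The 3 primitive globins summed to 52352, 67999 and 22747 FPKM in G2A livers 1, 2 and 3, against 14637 to 26761 FPKM in WT livers. All 10 mesenchymal markers were above 0 (median 1.13), with summed levels of 1116 to 2336 FPKM in G2A and 491.7 to 735.5 FPKM in WT livers. The 4 mesothelial markers summed to 43.9 to 113 FPKM in G2A and 40.7 to 52.2 FPKM in WT livers, and the 8 endothelial markers to 116 to 121 FPKM in G2A and 99.6 to 108 FPKM in WT livers. The 7 macrophage markers summed to 108 to 137 FPKM in G2A and 112 to 150 FPKM in WT livers, and the 5 megakaryocyte markers to 531 to 684 FPKM in G2A and 518 to 619 FPKM in WT livers. None of the markers tested was at 0 in all 6 livers, and none passed the threshold with all 6 livers. At an unadjusted limma p under 0.05, 6 of 10 mesenchymal, 2 of 3 primitive globin and 2 of 4 mesothelial markers were higher. So were 5 of 8 endothelial and 2 of 7 macrophage markers, and 3 of 9 erythroid markers were lower. Over all 12938 tested genes 1173 were higher and 1598 lower at that cut, or 21.4% in either direction.

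Markers of pancreas and gut endoderm, neighbours of the liver, were at low levels, with 4 of 10 past the filter, 0 above and 4 below 0, and 0 past the threshold (limma; 0 higher and 2 lower at an unadjusted p under 0.05). They summed to 5.92 to 8.09 FPKM in G2A and 11.1 to 18.5 FPKM in WT livers. Cela1, the most abundant of them, averaged 2.99 ± 0.427 FPKM in G2A and 3.04 ± 0.285 in WT livers (SD, n = 3 each), and both Cela1 and Sox17 overlapped. Cpa1, a pancreatic carboxypeptidase, was at 0.536, 0.340 and 0.430 FPKM in G2A livers 1, 2 and 3, against 6.01, 3.48 and 3.55 FPKM in WT livers 1, 2 and 3. All 3 G2A livers were below all 3 WT livers, with a log2 fold change of -1.87 that missed the threshold (limma adjusted p = 0.0811). Whether this tissue has a part in the levels of the 9 genes was not tested.

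Since a ratio of 2 genes within a library does not depend on how that library was scaled, 6 ratios were compared. The Afp to Alb ratio was 1.87, 2.06 and 1.68 in G2A livers 1, 2 and 3, against 1.46, 1.65 and 1.49 in WT livers 1, 2 and 3. Every G2A ratio was above every WT ratio, also that of G2A liver 3, and the fold between groups was 1.22 (log2 difference 0.28). The Trf to Alb ratio was 0.444, 0.497 and 0.405 in G2A livers, against 0.288, 0.374 and 0.294 in WT livers, and was 1.41-fold higher in G2A (log2 difference 0.50). The Ttr to Alb ratio was 0.0579, 0.0626 and 0.0584 in G2A livers, against 0.0693, 0.0686 and 0.0667 in WT livers. It was lower in all 3 G2A livers, with a log2 difference of -0.20.

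Among the apolipoproteins, the Apob to Apoa1 ratio was 0.0603, 0.0602 and 0.0648 in G2A livers 1, 2 and 3, against 0.0465, 0.0484 and 0.0482 in WT livers 1, 2 and 3. The groups were apart, with a fold of 1.29 (log2 difference 0.37) and an SD of 0.00261 in G2A and 0.00102 in WT livers (n = 3 each). The Apoa2 to Apoa1 ratio was 1.092, 1.064 and 1.195 in G2A livers, against 1.057, 0.910 and 0.991 in WT livers, with a log2 difference of 0.18. Here the lowest G2A liver, at 1.064, stood only just above the highest WT liver, at 1.057. The Foxa2 to Hnf4a ratio was 0.107, 0.208 and 0.123 in G2A livers, against 0.171, 0.153 and 0.161 in WT livers, and the groups overlapped.

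The 5 ratios whose groups did not overlap each had an exact two-sided permutation p of 0.1, the smallest that 3 against 3 samples can give, and 0.12 after Benjamini-Hochberg adjustment over the 6. The exact p for Foxa2 to Hnf4a was 0.5. This exact test could not pass 0.05 with 3 samples a group. Of all 36 possible pairs of the hepatoblast genes followed here, 22 had ratios whose groups did not overlap, and 14 overlapped. Separation was therefore not special to the ratios chosen. The share over all pairs of tested genes was not counted, so 22 of 36 has no background beside it. Most of the 6 ratios also share Alb or Apoa1, so they are not separate observations.

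**Figure D4:**
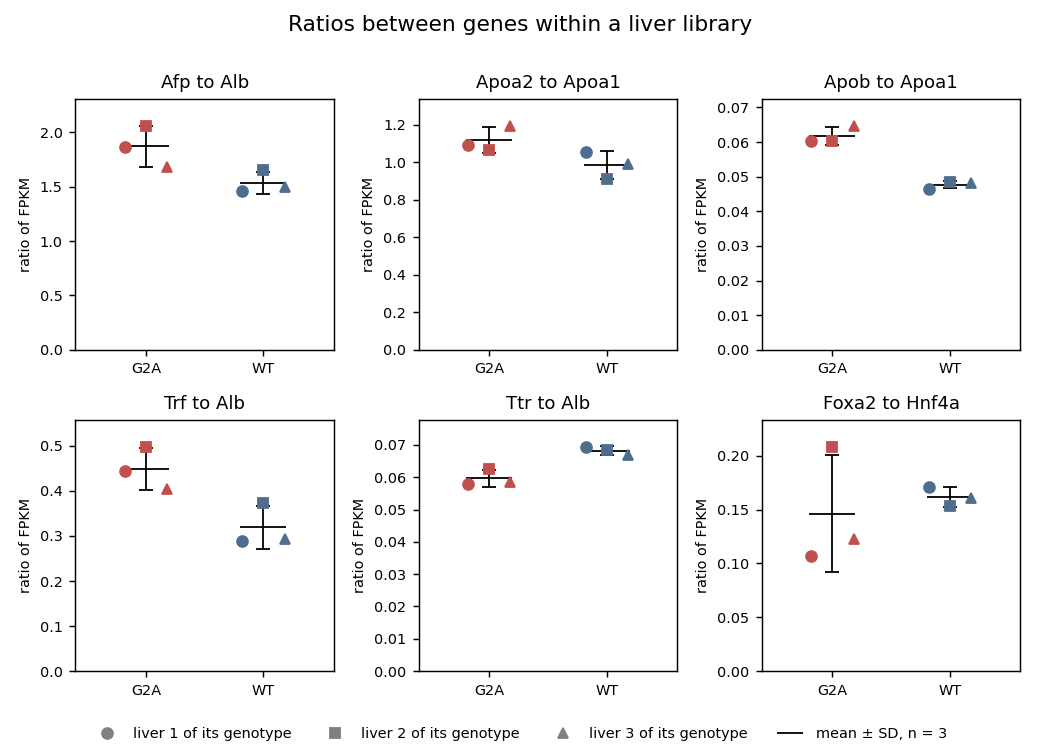
The 6 ratios of FPKM between genes of the same liver library, G2A left of WT, with 1 point per liver and the mean ± SD (n = 3 each). Afp to Alb, Trf to Alb, Apob to Apoa1 and Apoa2 to Apoa1 are higher in every G2A liver, Ttr to Alb is lower in every G2A liver, and Foxa2 to Hnf4a overlaps.

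Set against Alb alone, 3 of the other 8 genes were higher in every G2A liver (Afp, Apob and Trf) and 2 lower in every G2A liver (Apoa1 and Ttr). Of all tested genes 5.44% did not overlap in that ratio, 3.12% higher and 2.32% lower. Of 36 other hepatic secreted proteins, 7 were higher and 3 lower against Alb. Set against Apoa1, 6 of the other 8 genes were higher in every G2A liver and 0 lower, beside 27 of the 36 secreted proteins higher and 0 lower. In that ratio 17.9% of all tested genes did not overlap, 17.3% higher and 0.642% lower. These counts carry no test.

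As an alternative chosen after seeing the data, each library was rescaled by the median ratio of the 36 hepatic secreted proteins, none of them among the 9 genes. The factors were 0.845, 0.893 and 1.26 for G2A livers 1, 2 and 3, against 0.931, 0.993 and 1.14 for WT livers 1, 2 and 3. On this scale Afp was at 6087, 5728 and 5538 in G2A livers, against 4858, 5210 and 5054 in WT livers, and Trf at 1446, 1381 and 1335 in G2A livers, against 958.2, 1177 and 995.0 in WT livers. Both were higher in every G2A liver.

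Apoa1 on the same scale was at 779.6, 725.0 and 744.6 in G2A livers 1, 2 and 3, against 929.1, 936.4 and 898.6 in WT livers 1, 2 and 3. Ttr was at 188.4, 173.9 and 192.5 in G2A livers, against 230.4, 216.0 and 225.7 in WT livers. Both were lower in every G2A liver, and the other 5 genes overlapped. The groups of 4 of 9 genes were thus apart, against 7.68% of all tested genes (3.03% higher and 4.65% lower) and 18 of the 36 secreted proteins that set the scale. The median coefficient of variation over the 6 livers was 8.45% for the 9 genes after scaling and 19.0% before, while over all tested genes it was 19.6% after and 12.4% before. Before scaling the groups were apart for 27.5% of all tested genes. The contrast of 4 of 9 with 7.68% thus depends on the choice of scale and carries no test. The 95% interval of Trf then lay above 0, at 0.01 to 0.83 around a log2 fold change of 0.42, with a limma adjusted p = 0.998. Limma again called 0 of the 9 genes on this scale (3 of all genes passed, or 0.0232%, with 0.0155% higher and 0.00773% lower).

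Among 36 tested of 40 other hepatic secreted proteins the median log2 fold change was -0.06, with 17 above and 19 below 0, and 0 passed the threshold (limma; 3 higher and 2 lower at an unadjusted p under 0.05). The most abundant was Serpina6, the corticosteroid-binding globulin, at 716.5, 696.4 and 969.1 FPKM in G2A livers 1, 2 and 3, against 991.0, 1009 and 1219 FPKM in WT livers 1, 2 and 3. It was lower in every G2A liver, with a log2 fold change of -0.44 (limma adjusted p = 0.173). Rbp4, the retinol-binding partner of transthyretin, averaged 710 ± 137 FPKM in G2A and 784 ± 73.8 in WT livers, Apoe 737 ± 91.7 and Ambp 501 ± 75.8 FPKM in G2A, against 657 ± 64.1 and 469 ± 43.3 in WT livers (SD, n = 3 each), and all 3 overlapped. The 3 secreted proteins that were higher in every G2A liver, named after their values were seen, were F2, Serpinf1 and Igfbp1. Only 1 of the 36 was lower in every G2A liver. Over all tested genes 11.8% were higher and 15.7% lower in every G2A liver, so neither count was above that background. Igfbp1, which binds insulin-like growth factors, was at 184.3, 202.8 and 100.2 FPKM in G2A livers, against 34.24, 54.95 and 33.11 FPKM in WT livers, a log2 fold change of 1.94 (limma adjusted p = 0.0903).

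Of 14 tested hepatic transcription factors 7 were above and 7 below 0 (median 0.02), and 0 passed the threshold (limma; 2 higher and 1 lower at an unadjusted p under 0.05). Hhex, which is needed for the liver bud, averaged 15.8 ± 2.39 FPKM in G2A and 17.9 ± 1.06 in WT livers, and Cebpa, a C/EBP factor, 12.2 ± 1.54 FPKM in G2A and 13.2 ± 2.94 in WT livers (SD, n = 3 each). Tbx3, which keeps hepatoblasts in the hepatic fate, was at 11.64, 11.44 and 7.84 FPKM in G2A livers 1, 2 and 3, against 7.20, 5.96 and 7.01 FPKM in WT livers 1, 2 and 3. Every G2A liver was higher, with a log2 fold change of 0.53 (limma adjusted p = 0.146).

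The list of hepatoblast surface and epithelial genes gave other values than the list of secreted proteins. Bulk RNA does not show which cells these transcripts came from. Of 15 tested, 13 were above 0 and 9 were higher in every G2A liver, against 11.8% of all tested genes, with a median log2 fold change of 0.33 and 0 past the threshold (limma; 8 higher and 0 lower at an unadjusted p under 0.05). Dlk1, a Notch-family ligand used to sort hepatoblasts, was at 409.1, 482.5 and 426.7 FPKM in G2A livers 1, 2 and 3, against 356.6, 362.0 and 386.4 FPKM in WT livers 1, 2 and 3. Gpc3, a heparan sulfate proteoglycan, was at 362.9, 392.0 and 330.6 FPKM in G2A livers, against 307.3, 263.7 and 293.9 FPKM in WT livers. Both were higher in every G2A liver, with log2 fold changes of 0.25 and 0.33 (limma adjusted p = 0.152 and 0.132). Krt8, a keratin of simple epithelia, was at 87.42, 155.0 and 61.44 FPKM in G2A livers, against 47.54, 49.76 and 60.37 FPKM in WT livers, and was highest in G2A liver 2. The mean deviation of this list from the WT mean was 0.50, 1.02 and 0.09 in G2A livers 1, 2 and 3, where that of the other secreted proteins was -0.17, -0.16 and 0.35. The 4 mesothelial markers were at 0.71, 1.31 and 0.04 in the same livers, and their part in the epithelial values was not tested.

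Genes that work beside the apolipoproteins were at a median log2 fold change of 0.11, with 10 of 14 tested above 0 and 0 past the threshold (limma; 4 higher and 1 lower at an unadjusted p under 0.05). Scarb1, the high-density lipoprotein receptor, averaged 52.3 ± 4.04 FPKM in G2A and 59.8 ± 3.43 in WT livers. Lcat, which esterifies cholesterol on that particle, was at 24.51, 30.14 and 32.04 FPKM in G2A livers 1, 2 and 3, against 32.33, 34.45 and 36.62 FPKM in WT livers 1, 2 and 3. It was lower in every G2A liver, with a log2 fold change of -0.25 (limma adjusted p = 0.246). Lcat was the only 1 of the 14 lower in every G2A liver, and 5 were higher in every G2A liver. Over all tested genes these shares were 15.7% and 11.8%. The largest change of the list, named after the values were seen, was that of Vldlr, at 1.21 (limma adjusted p = 0.0903). Lpl, the lipoprotein lipase, averaged 36.1 ± 5.93 FPKM in G2A and 34.0 ± 2.28 FPKM in WT livers (SD, n = 3 each), and the groups overlapped.

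Of the 9 tested iron partners of transferrin 3 were above and 6 below 0 (median -0.15), and 0 passed the threshold (limma; 1 higher and 1 lower at an unadjusted p under 0.05). Tfrc, the receptor that takes up transferrin, was at 135.5, 111.4 and 201.6 FPKM in G2A livers 1, 2 and 3, against 180.6, 156.6 and 217.9 FPKM in WT livers 1, 2 and 3, and the groups overlapped. Steap3, the ferrireductase of the endosome in red cell precursors, was at 38.68, 36.63 and 50.12 FPKM in G2A livers, against 50.61, 67.97 and 57.0 FPKM in WT livers. It was lower in every G2A liver, with a log2 fold change of -0.48 (limma adjusted p = 0.159). The ferritin subunits Fth1 and Ftl1 overlapped between groups.

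The metabolic enzymes of the mature hepatocyte were mostly below the filter, with 9 of 20 tested, 5 above and 4 below 0 (median 0.0005), and 0 past the threshold (limma; 0 higher and 2 lower at an unadjusted p under 0.05). Ass1, a urea cycle enzyme, averaged 29.5 ± 7.003 FPKM in G2A and 38.3 ± 5.89 in WT livers (SD, n = 3 each) and overlapped.

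Without G2A liver 3 the lists gave other counts, beside the 12.4% of all tested genes that rose and the 12.0% that fell. Of the 36 hepatic secreted proteins 2 then rose and 9 fell (median log2 fold change -0.23), and of the 15 surface and epithelial genes 8 rose and 1 fell (median 0.67). Of the 14 transcription factors 1 rose and 1 fell, of the 14 lipoprotein genes 4 rose and 2 fell, of the 9 iron partners 1 rose and 3 fell, and of the 9 enzymes 0 rose and 3 fell. Among the markers of other cells, 8 of 9 definitive erythroid markers fell (median -0.76), and 8 of 10 mesenchymal, 3 of 3 primitive globin, 3 of 4 mesothelial and 3 of 8 endothelial markers rose. No macrophage or megakaryocyte marker passed in that fit, and 1 of the 4 pancreas and gut markers fell.

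**Figure D5:**
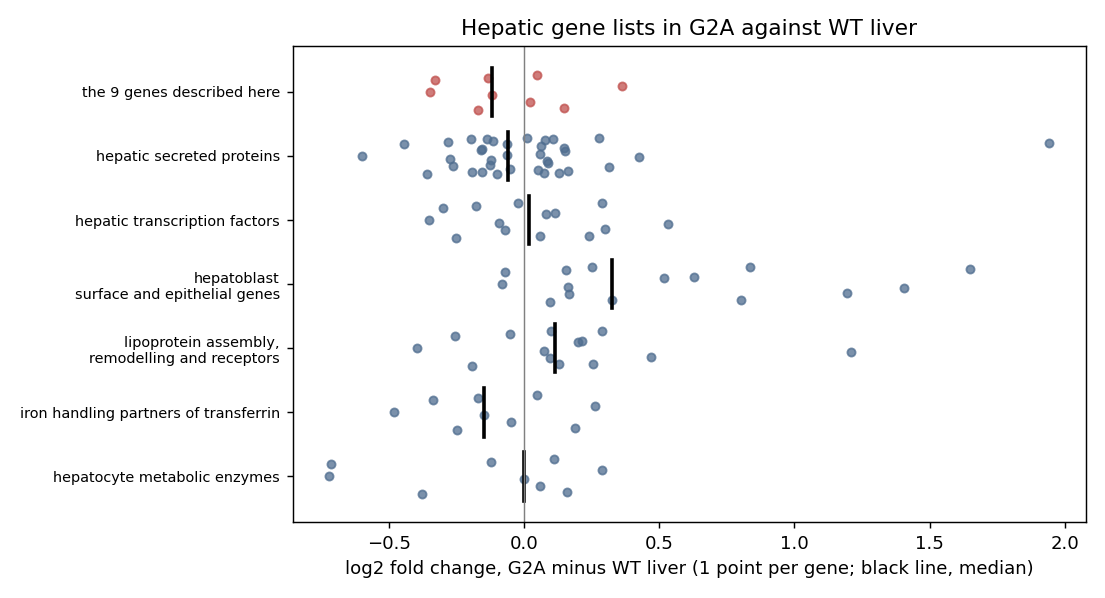
Log2 fold change, G2A minus WT liver, of the 9 genes (red) and of the tested genes of 6 other hepatic lists (blue), with 1 point per gene and a black line at the median. The medians lie between -0.15 and 0.11 except for the surface and epithelial genes, at 0.33.

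The 5 tested genes whose level over the 6 livers was most like the mean of the 9 were Fgb, Cfi, Hlf, Ndor1 and Akr1c12, with Pearson correlations of 0.993, 0.991, 0.991, 0.989 and 0.988. This is a description over 6 livers of the same libraries, and 61 of 12929 genes exceeded 0.95. Fgb, a fibrinogen chain, was at 164.6, 178.9 and 255.4 FPKM in G2A livers 1, 2 and 3, against 181.5, 204.8 and 225.7 FPKM in WT livers 1, 2 and 3. As for Alb, Apoa2 and Apob, G2A livers 1 and 2 were below every WT liver and G2A liver 3 above every WT liver.

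In the MEFs the values are normalized reads per gene and were not set against the FPKM. The G2A MEFs had 2 columns and the WT MEFs 3, and the third G2A MEF sample was not analysed here. Of the 7 genes tested 0 passed the threshold, and 0.0% of all 13241 genes did (limma; 1 of 7 and 14.4% of all genes at an unadjusted p under 0.05). EdgeR on the recovered whole reads also called 0 of 7 and 0.0% of all genes, with 0 of 7 and 13.9% at an unadjusted p under 0.05. Alb was at 275.1 and 0 normalized reads in G2A MEFs 1 and 2, against 305.0, 329.9 and 0 in WT MEFs 1, 2 and 3. Trf was at 69.03 and 1.96 in G2A MEFs, against 75.22, 67.85 and 2.82 in WT MEFs. Both were present in G2A MEF 1 and WT MEFs 1 and 2, and near 0 in G2A MEF 2 and WT MEF 3, whatever the genotype.

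Apob was at 874.7 and 1030 normalized reads in G2A MEFs 1 and 2, against 52.55, 65.77 and 546.0 in WT MEFs 1, 2 and 3. Foxa2 was at 88.75 and 97.05 in G2A MEFs, against 0, 0 and 71.42 in WT MEFs. For both genes all G2A MEFs were above all WT MEFs, and WT MEF 3 was the WT MEF nearest to them. The few reads of Afp, given below, were apart in the same direction. The share of all MEF genes with groups apart was not counted, so this separation has no background beside it. Apob had a log2 fold change of 2.93 (limma adjusted p = 0.327) and Foxa2 missed the threshold too (limma adjusted p = 0.387). Without WT MEF 3 both rose in G2A MEFs, Apob by 3.99 on the log2 scale (limma adjusted p = 0.000655) and Foxa2 with 0 reads in either WT MEF left (limma adjusted p = 0.00139). In that fit 23.2% of the 13241 genes passed, 1550 (11.7%) higher in G2A MEFs and 1525 (11.5%) lower. Afp was at 3.94 and 3.92 in G2A MEFs, against 0, 2.09 and 0 in WT MEFs, and Hnf4a at 0 and 0 in G2A MEFs, against 3.09, 0 and 0 in WT MEFs, and neither was tested.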

How the data were processed

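Total RNA of 6 livers and of immortalized MEFs was sequenced, per the labels; reads were trimmed to 50 bp and aligned to mm9 with TopHat 2.1.1, and TopHat2 2.1.1 and Cufflinks 2.2.1 appear in the submitters' processing notes beside the builds mm9 and mm10. The deposited liver values are FPKM, a unit inferred from Cufflinks and from values that are not whole, since the header gives none. The deposited MEF values are a normalized signal per gene: 100% of them were whole reads within 0.01 after removing 1 step per library, and edgeR 4.0.16 on those reads called 0 genes. Not given in the sources used here are the annotation and the use of strand.

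Genotype was tested on log2(value + 1) by limma 3.58.1 (R 4.3.3), with a variance trend and Benjamini-Hochberg adjustment over all genes tested, threshold 0.05. Liver genes had at least 1 FPKM in at least 3 libraries. The design assumed the same FPKM filter for MEFs; the unit found required another, at least 10 normalized reads in at least 2 libraries, set after seeing the data. Ratios were tested by exact permutation. The fits were tested on simulated data. The members, lists and tests were chosen with earlier results of these data known. Named genes were the 9 members, Psmc1, the 4 most abundant genes of each list (not all are printed) and the 5 genes most like the members. Alternatives covered the pseudocount, filters, scaling, a replicate block, library weights and leaving out each library.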

Additional observations from a re-analysis of the deposited data

Results flagged for a closer look

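Psmc1, the gene that carries the allele, was singled out because its G2A and WT samples were apart in opposite directions in liver and in MEFs. In liver its log2 fold change was -0.235, with every G2A liver below every WT liver. In MEFs it was at 10658 and 10913 normalized reads in G2A MEFs 1 and 2, against 7393, 8589 and 6485 in WT MEFs 1, 2 and 3, a log2 fold change of 0.54 (limma adjusted p = 0.282). Psmc1 passed the threshold in liver without G2A liver 3 (log2 fold change -0.27, limma adjusted p = 0.0173), where 24.4% of all genes passed. It passed in MEFs without WT MEF 3 (0.44, limma adjusted p = 0.0339), where 23.2% passed. On leaving out any other single library it passed in neither tissue. The difference between the tissues was not tested. Among the 9 hepatoblast genes no result met the rules used to single out values, and groups of 3 or fewer were not screened for outlying samples.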

How the results depend on the processing

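In liver the count of called genes among the 9 was 0 under the other pseudocount, filter, scaling, trend and block settings run, 3 with library weights and 0 to 3 on leaving out 1 library, 3 only without G2A liver 3. Their median log2 fold change ranged from -0.18 to 0.08 on leaving out 1 library, was -0.33 with library weights and -0.002 with quantile normalization. Afp, Alb, Apob, Hnf4a and Foxa2 changed sign in some settings: with library weights Afp was at -0.028, Apob at -0.19 and Hnf4a at -0.094, and with median-of-ratios scaling Apob was at -0.000189. On leaving out 1 library Afp ranged from -0.000418 to 0.23, Alb from -0.36 to 0.015, Apob from -0.18 (without G2A liver 3) to 0.13, Hnf4a from -0.088 (without G2A liver 3) to 0.13 and Foxa2 from -0.28 to 0.081; without WT liver 1 Apob was at -0.051 and Hnf4a at -0.037. Apoa1, Apoa2, Ttr and Trf kept their direction in all settings run. The 6 ratios kept theirs with a pseudocount of 1 on both genes and on leaving out each single liver, the only settings run for them.

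The deviations of same-numbered livers had correlations of 0.18, -0.10 and 0.10 over 12938 genes for numbers 1, 2 and 3. Not every liver correlated best with its own number. Such weak correlations cannot show whether the numbers pair the samples, and the labels do not tie the numbers to pairs. With a replicate block 0 of the 9 liver genes and 2 of all liver genes were called, against 3 without it. In that fit Apoa1, Ttr and Trf had an unadjusted limma p of 0.020, 0.021 and 0.032. The rest of the 9 genes stayed above 0.05. In MEFs 0 of 7 genes were called, 0 to 2 on leaving out 1 library (2 without WT MEF 3), and 2 with the replicate block, which by construction also leaves out WT MEF 3. The cause of these shifts was not tested. With 3 livers a group the exact permutation test used for the ratios cannot pass 0.05, and the depth of the liver libraries in reads is unknown.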

Other observations

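Of the 40 other hepatic secreted proteins, 35 and 15 had reads in G2A MEFs 1 and 2, against 35, 36 and 20 in WT MEFs 1, 2 and 3. Their summed level did not follow this count, at 6379 and 7142 normalized reads in G2A MEFs 1 and 2, against 10835, 8620 and 19314 in WT MEFs 1, 2 and 3. Ttr was at 11.8 and 0 normalized reads in G2A MEFs 1 and 2, against 15.5, 19.8 and 0 in WT MEFs 1, 2 and 3. Apoa1 was at 28.6 and 1.96 in G2A MEFs, against 17.5, 30.3 and 0.940 in WT MEFs. Apoa2 was at 40.4 and 28.4 in G2A MEFs, against 37.1, 51.2 and 15.0 in WT MEFs.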
